A study of Mus musculus with 32 samples.

Results

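The 33 genes described here encode proteins made chiefly by hepatocytes, and they were read in RNA of whole blood. They were chosen by name: every non-control probe whose gene name in the scanner tables is 1 of the 33 was taken, which gave 46 probes. The arrays hold 39429 non-control probes for 30139 gene names. The measurements come from 32 male C57BL/6 mice, with 1 Agilent 1-colour array per mouse, 24 h after X-rays or a sham exposure. The irradiated groups were wild type (WT) at 8 Gy (n = 5), ATM-/- mice, which lack the DNA damage kinase ATM (Atm), at 4 Gy (n = 6), and Scid mice, which carry a mutation in Prkdc, a kinase of DNA end joining, at 3 Gy (n = 5). Their sham-exposed controls at 0 Gy were WT (n = 6), Atm (n = 5) and Scid (n = 5). All 6 groups shared cardiac puncture into PAXgene solution, DNase treatment on the column and depletion of globin transcripts. Each genotype had its own dose, described in the design as the LD50/30, so genotype and dose cannot be told apart.

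Hepatocytes secrete most of the proteins of plasma, among them albumin, carriers of iron, heme and vitamins, apolipoproteins, clotting factors and inhibitors of proteases. They also hold enzymes of the urea cycle, of amino acid breakdown and of drug metabolism. Blood cells are not a main source of these transcripts, although some of the genes, such as Ass1 and Trf, are transcribed in other tissues too. In an acute phase response the liver changes its output, with serum amyloid A and hepcidin among the proteins it makes in larger amounts.

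The 46 probes are 60 bases long, and 5 of them lie across a splice junction, so that they have no unbroken match in genomic DNA. All 5 had the same 4 arrays highest as most other probes. The following 4 are shown because they also hold a reading frame without a stop codon. The junction probe of Ambp has no such frame and is not shown. Positions are in build mm9, as the file headers name it, each from the first to the last genomic base of the probe with the intron between them.
Vtn, chr11:78315393-78315665 (+ strand): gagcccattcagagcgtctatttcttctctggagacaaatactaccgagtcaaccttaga
Gc, chr5:89864029-89864558 (- strand): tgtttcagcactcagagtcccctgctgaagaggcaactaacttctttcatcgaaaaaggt
Cyp3a11, chr5:146672058-146673925 (- strand): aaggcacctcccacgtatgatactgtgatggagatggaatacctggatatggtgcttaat
Hpd, chr5:123622237-123624360 (- strand): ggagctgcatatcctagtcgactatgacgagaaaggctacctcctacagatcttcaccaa
The Vtn probe spans 273 genomic bases, the Gc probe 530, the Cyp3a11 probe 1868 and the Hpd probe 2124.

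Promoters of liver genes are known for sites of the liver-enriched factor HNF1, whose core is taken here as GTTAAT. RefSeq promoter sequences (GRCm38.p6, 250 bases before to 50 after the transcription start) were held for 28 promoters of 26 of the 33 genes. The core, searched on both strands, was in 9 of these 28 (32.1%), against 2332 of 32851 promoters in all (7.10%). The full palindromic site, which holds the core on each strand, was in 0 of the 28 and in 3 of the 32851. The 9 were those of Alb, F2, Fabp1, Fga, Fgb, Gc, Serpina1a, Serpina1b and Vtn. The 150 bases before the start of 4 of them are shown, with the core in capitals, which reads ATTAAC where it lies on the opposite strand. These 4 genes encode plasma carriers (Alb and Gc), a clotting protein (Fgb) and a fatty acid-binding protein (Fabp1). No apolipoprotein or protease inhibitor is among these 4, but the protease inhibitor genes Serpina1a and Serpina1b are among the 9.
Alb, chr5:90460720-90460869 (+ strand): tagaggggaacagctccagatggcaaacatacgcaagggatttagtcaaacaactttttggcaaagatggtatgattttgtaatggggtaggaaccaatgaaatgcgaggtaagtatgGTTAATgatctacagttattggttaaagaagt
Fgb, chr3:83049864-83050013 (- strand): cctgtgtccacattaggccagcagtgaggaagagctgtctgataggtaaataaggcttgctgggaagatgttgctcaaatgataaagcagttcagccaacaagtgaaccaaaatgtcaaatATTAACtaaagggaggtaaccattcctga
Gc, chr5:89457899-89458048 (- strand): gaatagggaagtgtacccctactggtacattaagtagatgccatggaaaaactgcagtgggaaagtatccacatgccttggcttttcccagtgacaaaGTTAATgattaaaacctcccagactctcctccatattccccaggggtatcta
Fabp1, chr6:71199729-71199878 (+ strand): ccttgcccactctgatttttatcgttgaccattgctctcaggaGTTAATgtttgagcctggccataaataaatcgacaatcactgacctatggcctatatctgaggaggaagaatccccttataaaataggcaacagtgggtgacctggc
In these windows the core begins at position -32 in Alb, -29 in Fgb, -52 in Gc and -107 in Fabp1, counted from the start of transcription. A match is a description of these letters and no measure of binding.

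Each array was scaled to the 75th percentile of its own signal, and a level is the log2 signal with that percentile at 0. A probe is well above background where the scanner software flagged it so, and levels of probes below that have no order. The share of probes well above background was 20.02 to 58.6% per array, and the number of arrays limits the precision. Markers of blood were present throughout: all 5 red cell and all 5 platelet genes on the arrays were well above background on 32 of 32 arrays, and all 7 leukocyte genes on 30. In bulk RNA, fewer cells of a type and less RNA per cell cannot be told apart. The replicates are separate mice.

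The hepatocyte transcripts were bright on 4 arrays and dim or undetected on most others, and the 4 arrays were spread over irradiated and sham-exposed groups. The mean level of the 33 transcripts was 5.99, 6.61, 1.04, -0.79 and -1.93 in WT 8 Gy replicates 1 to 5, against -1.59, 2.40, -1.51, 1.31, 6.68 and -1.04 in WT 0 Gy replicates 1 to 6. It stood at -2.32, -1.86, 6.10, -1.72, 3.67 and -0.69 in Atm 4 Gy replicates 1 to 6, against -1.95, 2.17, -1.77, -1.81 and -1.82 in Atm 0 Gy replicates 1 to 5. It was 0.12, -1.41, -0.76, -1.68 and 0.78 in Scid 3 Gy replicates 1 to 5, against -1.48, -1.71, -2.19, -0.60 and -0.77 in Scid 0 Gy replicates 1 to 5. WT 8 Gy replicates 1 and 2, WT 0 Gy replicate 5 and Atm 4 Gy replicate 3 stood far above the other 28 arrays, and Atm 4 Gy replicate 5 came next. On dim arrays the mean includes probes below background, whose levels have no order. The irradiated and sham-exposed ranges overlapped in every genotype. The group means were 2.18 ± 3.91 in WT 8 Gy (SD, n = 5) and 1.04 ± 3.21 in WT 0 Gy (SD, n = 6), 0.53 ± 3.50 in Atm 4 Gy (SD, n = 6) and -1.04 ± 1.79 in Atm 0 Gy (SD, n = 5), and -0.59 ± 1.03 in Scid 3 Gy (SD, n = 5) and -1.35 ± 0.66 in Scid 0 Gy (SD, n = 5). The SD within groups, pooled over the 6, was 2.72, so every difference between an irradiated group and its control was smaller than it.

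**Figure D1:**
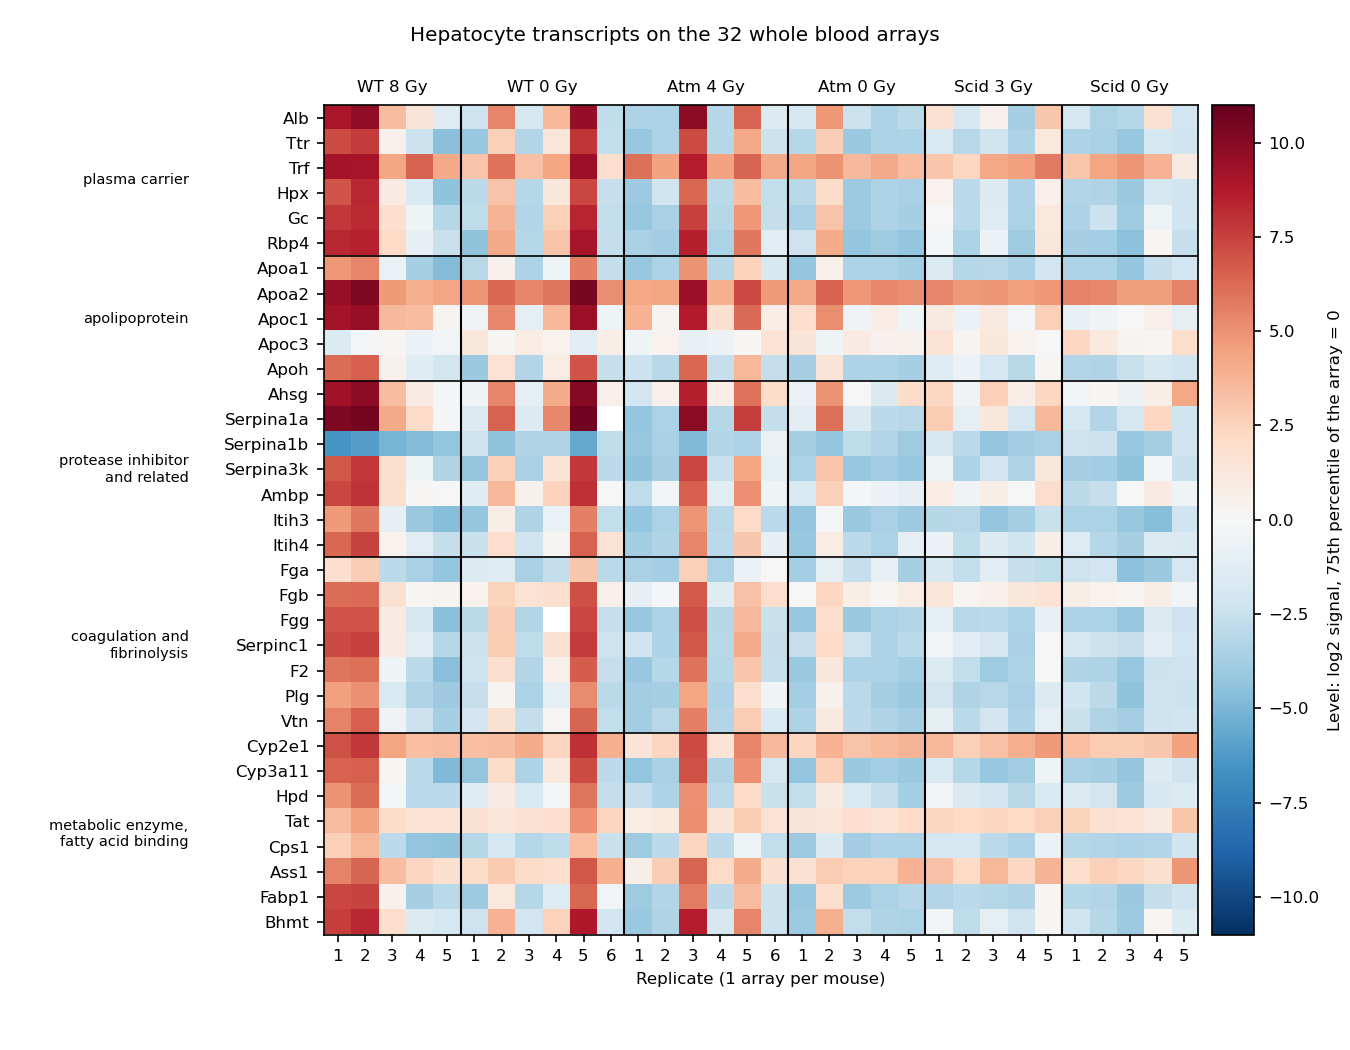
Level of each of the 33 transcripts (rows, grouped by role) on each of the 32 arrays (columns, by group and replicate), as log2 signal with the array's 75th percentile at 0, where blank cells are spots marked as outliers. WT 8 Gy replicates 1 and 2, WT 0 Gy replicate 5 and Atm 4 Gy replicate 3 are the 4 highest arrays for 31 of the 33 genes, and Apoc3 and Serpina1b are the exceptions.

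The same 4 arrays held the 4 highest levels for 31 of the 33 genes. Across the 15159 genes that entered the tests, 840 (5.54%) had these 4 arrays highest, and 74 of 90 further hepatocyte genes on the arrays did. WT 0 Gy replicate 5 was the highest array for 20 of the 33, WT 8 Gy replicate 2 for 9 and Atm 4 Gy replicate 3 for 2. Atm 4 Gy replicate 5 was the fifth for 27. The signal was also summed over the 33 genes, with only the 1 probe that gives each gene's level, so further probes of a gene are not in the sum. By this sum the transcripts took 2.58% and 3.72% of the signal of all probes in WT 8 Gy replicates 1 and 2. The share was 3.56% in WT 0 Gy replicate 5 and 2.26% in Atm 4 Gy replicate 3. Atm 4 Gy replicate 5 followed with 0.268%, WT 0 Gy replicate 2 with 0.117% and Atm 0 Gy replicate 2 with 0.0969%. On WT 8 Gy replicates 3 and 4 the share was 0.0507% and 0.0480%, and the remaining 23 arrays lay between 0.00739 and 0.0317%. The 4 bright arrays also had 58.6, 57.0, 53.3 and 48.1% of all their probes well above background, in the order just given, against 20.02 to 51.2% on the others.

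By the number of transcripts well above background, WT 8 Gy replicates 1 to 5 held 32, 32, 31, 22 and 15 of the 33, against 14, 32, 9, 28, 32 and 10 in WT 0 Gy replicates 1 to 6. Atm 4 Gy replicates 1 to 6 held 9, 9, 32, 8, 32 and 9, against 11, 32, 12, 11 and 10 in Atm 0 Gy replicates 1 to 5. Scid 3 Gy replicates 1 to 5 held 22, 12, 18, 12 and 27, against 11, 9, 11, 26 and 7 in Scid 0 Gy replicates 1 to 5. Detection therefore reached beyond the 4 bright arrays: 14 of 32 arrays had more than 50% of the 33 transcripts well above background, and 7 arrays had 32 of them. These 14 arrays came from every group.

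**Figure D2:**
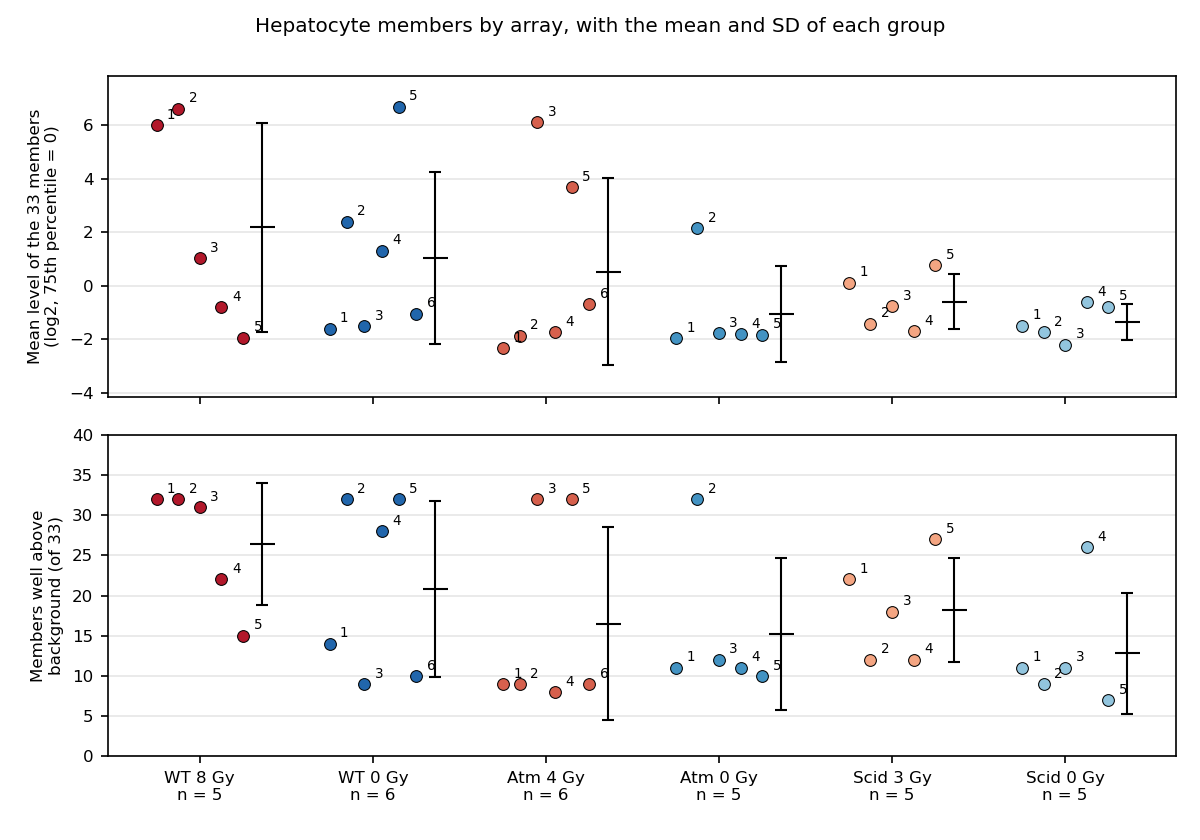
Mean level of the 33 transcripts (upper panel, log2 with the array's 75th percentile at 0) and number of them well above background (lower panel, of 33) on each array, with replicate numbers, and the mean and SD of each group as bars. The means run from 2.18 in WT 8 Gy to -1.35 in Scid 0 Gy, and arrays of irradiated and sham-exposed mice overlap in all 3 genotypes.

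Among the carriers of plasma, Alb encodes albumin and was read by 1 probe (chr5:90901598-90901657 in mm9, + strand, transcript NM_009654), well above background on 15 of 32 arrays. The level of Alb was 8.97, 9.76, 3.41, 1.39 and -1.42 in WT 8 Gy replicates 1 to 5, against -2.27, 5.39, -1.83, 3.69, 9.67 and -2.80 in WT 0 Gy replicates 1 to 6. Alb stood at -3.40, -3.48, 9.81, -3.12, 6.39 and -1.53 in Atm 4 Gy replicates 1 to 6, against -1.88, 4.78, -2.36, -3.48 and -2.95 in Atm 0 Gy replicates 1 to 5. For Alb the levels were 1.69, -1.85, 0.44, -3.67 and 2.98 in Scid 3 Gy replicates 1 to 5, against -1.98, -3.44, -3.17, 1.69 and -2.09 in Scid 0 Gy replicates 1 to 5. By group, Alb was well above background on 5 of 5 WT 8 Gy arrays and 3 of 6 WT 0 Gy arrays, on 2 of 6 Atm 4 Gy and 1 of 5 Atm 0 Gy arrays, and on 3 of 5 Scid 3 Gy and 1 of 5 Scid 0 Gy arrays. The highest level, 9.81, belonged to an irradiated Atm mouse, and a sham-exposed WT mouse had 9.67. The groups overlapped in each genotype.

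Trf encodes transferrin, the iron carrier, and had 2 probes and a signal well above background on all 32 arrays. The level of Trf was 9.11, 9.08, 4.31, 6.53 and 4.15 in WT 8 Gy replicates 1 to 5, against 3.12, 5.97, 3.22, 4.31, 9.43 and 1.96 in WT 0 Gy replicates 1 to 6. Trf stood at 6.05, 4.45, 8.67, 4.44, 6.41 and 4.19 in Atm 4 Gy replicates 1 to 6, against 4.38, 4.91, 3.54, 4.14 and 3.40 in Atm 0 Gy replicates 1 to 5. For Trf the levels were 3.08, 2.26, 4.29, 4.50 and 5.69 in Scid 3 Gy replicates 1 to 5, against 3.03, 4.35, 4.83, 3.86 and 1.01 in Scid 0 Gy replicates 1 to 5. Trf thus had a level on every array, and the bright arrays rose out of that level rather than out of background. Its groups overlapped, and in WT the lowest 8 Gy array lay within the 0 Gy range. Ttr, whose product transthyretin carries thyroid hormone and the retinol-binding protein, had 1 probe and was well above background on 11 arrays. The level of Ttr was 7.21, 7.73, 0.45, -2.37 and -4.64 in WT 8 Gy replicates 1 to 5, against -4.19, 2.63, -3.22, 1.35, 7.88 and -2.71 in WT 0 Gy replicates 1 to 6. Ttr stood at -4.15, -3.42, 7.19, -3.13, 4.17 and -2.33 in Atm 4 Gy replicates 1 to 6, against -3.18, 2.74, -4.04, -3.45 and -3.41 in Atm 0 Gy replicates 1 to 5. For Ttr the levels were -1.69, -3.04, -2.23, -3.39 and 1.13 in Scid 3 Gy replicates 1 to 5, against -3.40, -3.54, -4.18, -1.95 and -2.23 in Scid 0 Gy replicates 1 to 5. Outside those 11 arrays its probe was at background, and the groups overlapped in each genotype. Rbp4, the retinol-binding protein itself, had 1 probe and passed on 15 arrays. The level of Rbp4 was 8.30, 8.46, 2.18, -0.90 and -2.48 in WT 8 Gy replicates 1 to 5, against -4.47, 4.14, -3.11, 3.11, 9.10 and -2.61 in WT 0 Gy replicates 1 to 6. Rbp4 stood at -3.57, -3.85, 8.57, -3.45, 5.80 and -1.28 in Atm 4 Gy replicates 1 to 6, against -2.29, 4.06, -4.28, -3.91 and -4.23 in Atm 0 Gy replicates 1 to 5. For Rbp4 the levels were -0.20, -3.45, -0.66, -3.91 and 1.27 in Scid 3 Gy replicates 1 to 5, against -3.64, -3.77, -4.52, 0.23 and -2.54 in Scid 0 Gy replicates 1 to 5. These were the same 15 arrays as for Alb, and among them the order of the arrays was close to that of Alb. Levels of Rbp4 on the other arrays have no order. Again no genotype separated its irradiated from its sham-exposed mice. Of the other carriers, Hpx, which binds heme, had 1 probe and 13 arrays well above background, and Gc, the vitamin D-binding protein, had 2 probes and 15 arrays.

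The apolipoproteins coat lipoprotein particles. Apoa1, the main protein of HDL, had 1 probe, well above background on 9 arrays. The level of Apoa1 was 4.80, 5.38, -0.73, -3.62 and -4.74 in WT 8 Gy replicates 1 to 5, against -3.01, 0.47, -3.35, -0.44, 5.52 and -2.59 in WT 0 Gy replicates 1 to 6. Apoa1 stood at -4.15, -3.47, 4.97, -3.11, 2.53 and -1.72 in Atm 4 Gy replicates 1 to 6, against -4.21, 0.55, -3.42, -3.48 and -3.75 in Atm 0 Gy replicates 1 to 5. For Apoa1 the levels were -1.52, -3.13, -3.02, -3.54 and -2.14 in Scid 3 Gy replicates 1 to 5, against -3.40, -3.47, -4.22, -2.53 and -2.08 in Scid 0 Gy replicates 1 to 5. It was well above background on 3 of 5 WT 8 Gy and 3 of 6 WT 0 Gy arrays, and in Atm and Scid it was not so on most arrays of either group. Apoa2, a further HDL protein, had 2 probes and was well above background on 32 arrays, Apoc1 had 1 probe and 31 arrays, Apoc3 had 2 probes and 32 arrays, and Apoh, which binds phospholipid, had 1 probe and 14 arrays.

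The inhibitors of proteases and related proteins were read as follows. Ahsg, or fetuin-A, a mineral-binding protein, had 1 probe and 29 arrays, and Serpina1a, an alpha-1 antitrypsin, had 2 probes and 19 arrays. Serpina1b, a close paralog, had 1 probe and 0 arrays, and Serpina3k had 1 probe and 13. Ambp, which gives rise to alpha-1-microglobulin and bikunin, had 1 probe and 23 arrays, while Itih3 and Itih4, heavy chains of inter-alpha-trypsin inhibitors, had 1 probe with 9 arrays and 2 probes with 15. Probes of the Serpina1 and Serpina3 families may read near-identical paralogs, so their identity is uncertain.

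Among the coagulation genes, Fgb encodes the beta chain of fibrinogen and had 1 probe, well above background on 30 arrays. The level of Fgb was 6.16, 6.27, 1.64, 0.24 and 0.34 in WT 8 Gy replicates 1 to 5, against 0.36, 2.45, 1.57, 1.79, 7.06 and 0.54 in WT 0 Gy replicates 1 to 6. Fgb stood at -0.92, -0.24, 6.72, -1.32, 3.21 and 1.92 in Atm 4 Gy replicates 1 to 6, against 0.03, 2.26, 0.68, 0.14 and 0.82 in Atm 0 Gy replicates 1 to 5. For Fgb the levels were 1.36, 0.21, 0.59, 1.21 and 1.49 in Scid 3 Gy replicates 1 to 5, against 0.62, 0.40, 0.24, 0.71 and -0.30 in Scid 0 Gy replicates 1 to 5. A faint Fgb signal was thus present on nearly all arrays, with WT 0 Gy replicate 5 highest and the groups overlapping. Fga and Fgg, the other fibrinogen chains, had 2 probes with 13 arrays and 1 probe with 12. F2, prothrombin, had 1 probe and 10 arrays, and Plg, plasminogen, had 1 probe and 10. Serpinc1, antithrombin, had 1 probe and 14 arrays, and Vtn, the adhesive plasma protein vitronectin, had 1 probe and 13.

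The enzymes divided into those seen on every array and those seen on few. Cyp2e1, a cytochrome P450 that oxidises ethanol, had 2 probes and was well above background on 32 arrays. The level of Cyp2e1 was 7.02, 7.78, 4.31, 3.30 and 3.37 in WT 8 Gy replicates 1 to 5, against 3.28, 3.38, 4.09, 2.35, 8.05 and 3.94 in WT 0 Gy replicates 1 to 6. Cyp2e1 stood at 1.40, 2.35, 7.20, 1.47, 5.36 and 3.58 in Atm 4 Gy replicates 1 to 6, against 2.32, 3.83, 3.13, 3.48 and 3.75 in Atm 0 Gy replicates 1 to 5. For Cyp2e1 the levels were 3.69, 2.65, 3.22, 3.98 and 4.69 in Scid 3 Gy replicates 1 to 5, against 3.30, 2.81, 2.81, 3.01 and 4.42 in Scid 0 Gy replicates 1 to 5. Apart from the 4 bright arrays and Atm 4 Gy replicate 5, all arrays lay between 1.40 and 4.69, with irradiated and sham-exposed mice mixed. Cps1, the enzyme that feeds ammonia into the urea cycle, had 1 probe and was well above background on 8 arrays. The level of Cps1 was 2.66, 3.63, -2.90, -4.37 and -4.43 in WT 8 Gy replicates 1 to 5, against -3.13, -1.90, -3.10, -2.80, 3.31 and -2.49 in WT 0 Gy replicates 1 to 6. Cps1 stood at -3.92, -2.89, 2.40, -2.90, -0.52 and -2.67 in Atm 4 Gy replicates 1 to 6, against -4.01, -1.57, -3.83, -3.38 and -3.38 in Atm 0 Gy replicates 1 to 5. For Cps1 the levels were -1.85, -1.96, -2.91, -3.38 and -0.62 in Scid 3 Gy replicates 1 to 5, against -3.17, -3.24, -3.39, -3.22 and -2.19 in Scid 0 Gy replicates 1 to 5. Each of the 8 arrays had at least 27 of the 33 transcripts well above background, and outside them the Cps1 levels have no order. Ass1, a urea cycle enzyme that other tissues use to make arginine, had 2 probes and 32 arrays. The level of Ass1 was 5.45, 6.37, 3.39, 2.39 and 1.77 in WT 8 Gy replicates 1 to 5, against 2.04, 2.91, 2.0, 1.86, 6.82 and 3.89 in WT 0 Gy replicates 1 to 6. Ass1 stood at 0.66, 2.69, 6.39, 2.21, 4.04 and 1.80 in Atm 4 Gy replicates 1 to 6, against 1.69, 2.76, 2.54, 2.52 and 3.85 in Atm 0 Gy replicates 1 to 5. For Ass1 the levels were 3.26, 2.18, 3.67, 2.25 and 3.72 in Scid 3 Gy replicates 1 to 5, against 1.95, 2.63, 2.32, 1.80 and 4.83 in Scid 0 Gy replicates 1 to 5. The groups overlapped, and Scid 0 Gy replicate 5 was high for Ass1 although it held only 7 of the 33 transcripts. Of the others, Tat, which breaks down tyrosine, had 1 probe and 32 arrays, Hpd, which acts after it, 1 probe and 12, and Bhmt, which remethylates homocysteine, 4 probes and 22. Cyp3a11, a drug-metabolising P450, had 2 probes and 11 arrays, and Fabp1, the fatty acid-binding protein of liver, 1 probe and 9.

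The probes of 3 transcripts were exceptions to the shared order of arrays, and 43 of 46 had the same 4 arrays highest. For Apoc3, the probe of transcript ENSMUST00000118649 was well above background on 32 arrays with a highest level of 2.28, while the probe of NM_023114 was so on 18 arrays, reached 8.08 and had the 4 bright arrays highest. The first of these has the higher mean and stands for Apoc3 in the fits. For Bhmt, the probe of ENSMUST00000124193 reached 0.57 and was well above background on 18 arrays, without the shared order. The Serpina1b probe (XR_141680) passed background on none of the 32 arrays.

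Between bright arrays, most of the transcripts shifted by similar amounts, as differences in level over the 32 genes well above background on both arrays show. Single genes lay farther out, and WT 8 Gy replicate 1 minus WT 0 Gy replicate 5 ran from -1.60 (Tat) to 0.976 (Fabp1). WT 8 Gy replicate 2 exceeded replicate 1 by a median of 0.62 (quartiles 0.28 and 0.97), and 31 of 32 genes were higher. WT 8 Gy replicate 1 lay below WT 0 Gy replicate 5 by a median difference of -0.73 (quartiles -0.91 and -0.43), and WT 8 Gy replicate 2 differed from it by -0.15 (quartiles -0.36 and 0.10). Atm 4 Gy replicate 3 differed from WT 0 Gy replicate 5 by -0.68 (quartiles -0.84 and -0.40). On fainter arrays most genes also moved together: Atm 4 Gy replicate 5 differed from replicate 3 by -2.67 (quartiles -2.92 and -2.32). WT 0 Gy replicate 2 differed from WT 0 Gy replicate 5 by -4.66 (quartiles -4.98 and -4.27), and Atm 0 Gy replicate 2 by -4.89 (quartiles -5.34 and -4.53). Only Apoc3, read by the probe without the shared order, went the other way on these fainter arrays, by 0.90, 1.28 and 0.70 in that order. Fabp1, chosen after its values were seen, was the gene most above the rest in WT 8 Gy replicates 1 and 2 against WT 0 Gy replicate 5, by 0.976 and 1.098. These are differences between single mice and carry no test.

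Whether irradiation changed the transcripts was asked with limma over all 15159 genes tested, with Benjamini-Hochberg adjustment. Of the 33 genes, 23 entered because a probe passed background on 4 or more arrays within 1 group, and Apoa1, Cps1, Cyp3a11, F2, Fabp1, Fga, Itih3, Plg, Serpina1b and Ttr did not. Of the 23, 0 were called at an adjusted p under 0.05 in WT 8 Gy against 0 Gy, where 7.2% of all genes were called, and 0 had an unadjusted p under 0.05, where 20.7% of all genes did. The count was likewise 0 on both measures in Atm 4 Gy against 0 Gy (0.237% called and 12.1% unadjusted among all genes) and in Scid 3 Gy against 0 Gy (1.07% and 9.59%). It was 0 on both for the Atm response minus the WT response (0.0% and 8.55%) and for the Scid response minus the WT response (0.0% and 7.12%). The calls over all genes were 1092 in WT (172 higher, 920 lower), 36 in Atm (11 higher, 0.0726% of genes, and 25 lower, 0.165%) and 162 in Scid (9 higher, 0.0594%, and 153 lower, 1.01%).

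The fold changes had large errors. The fit took 1 spread per gene over all 6 groups, so the errors in Scid also rest on the spread among WT and Atm arrays. In Scid the median SE of the 23 was 1.77 on all arrays. It was 1.14 without the 4 bright arrays, none of which is Scid. Alb had a log2 fold change of 2.45 (SE 2.38, adjusted p = 0.592) in WT 8 Gy against 0 Gy, 1.96 (SE 2.38, adjusted p = 0.831) in Atm 4 Gy against 0 Gy and 1.72 (SE 2.48, adjusted p = 0.902) in Scid 3 Gy against 0 Gy. Apoa2, Trf and Cyp2e1 were the tested transcripts of highest mean level. Trf had a log2 fold change of 1.96 (SE 1.05, adjusted p = 0.290) in WT 8 Gy against 0 Gy, 1.63 (SE 1.05, adjusted p = 0.589) in Atm 4 Gy against 0 Gy and 0.55 (SE 1.099, adjusted p = 0.935) in Scid 3 Gy against 0 Gy. Apoa2 had a log2 fold change of 0.23 (SE 1.03, adjusted p = 0.916) in WT 8 Gy against 0 Gy, 0.48 (SE 1.03, adjusted p = 0.923) in Atm 4 Gy against 0 Gy and -0.22 (SE 1.08, adjusted p = 0.972) in Scid 3 Gy against 0 Gy. Cyp2e1 had a log2 fold change of 0.97 (SE 0.92, adjusted p = 0.581) in WT 8 Gy against 0 Gy, 0.26 (SE 0.92, adjusted p = 0.959) in Atm 4 Gy against 0 Gy and 0.37 (SE 0.96, adjusted p = 0.952) in Scid 3 Gy against 0 Gy. A p that misses the threshold does not show that the groups were alike. The lowest adjusted p among the 23 was 0.290, for Trf, in WT, 0.589, also for Trf, in Atm, and 0.843, for Ambp, in Scid. When each array was left out in turn, Trf passed in WT without WT 0 Gy replicate 5 (log2 fold change 2.92, adjusted p = 0.0390), and no other transcript was called in the 3 comparisons.

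Of the 23, 9 entered only through WT 8 Gy, where they were well above background on 4 or 5 of 5 arrays (Alb, Apoh, Fgg, Gc, Hpx, Rbp4, Serpina3k, Serpinc1 and Vtn), so the values over the 23 in WT rest in part on genes admitted through the group where they were bright. They are given as a description. Over the 23, the median log2 fold change was 1.46 in WT 8 Gy against 0 Gy, 1.72 in Atm 4 Gy against 0 Gy and 0.71 in Scid 3 Gy against 0 Gy. The medians over all 15159 genes were -0.02, -0.16 and 0.01 in the same order. The median SE of the 23 was 1.70, 1.70 and 1.77, against 0.446, 0.446 and 0.465 over all genes. The fold change was positive for 22, 22 and 21 of the 23, against 7402, 5752 and 7691 of the 15159. With no filter on dim probes, all 33 had medians of 1.16 in WT, 1.89 in Atm and 0.69 in Scid, against -0.65, 0.17 and 0.10 over the 30139 genes then fitted, many at background. The 23 moved from array to array as a block, so their signs are not separate observations. For the responses of Atm and Scid minus that of WT, the medians were 0.25 and -0.60, with median SEs of 2.40 and 2.45, and over all genes they were -0.09 and 0.07. Single bright arrays set the size of these medians. Leaving out WT 8 Gy replicate 2 brought the WT median to 0.11, leaving out replicate 1 of that group to 0.26, and leaving out the control replicate 5 to 2.86. In Atm, the median was 0.52 when replicate 3 of the 4 Gy mice was left out and 2.75 when replicate 2 of the controls was.

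**Figure D3:**
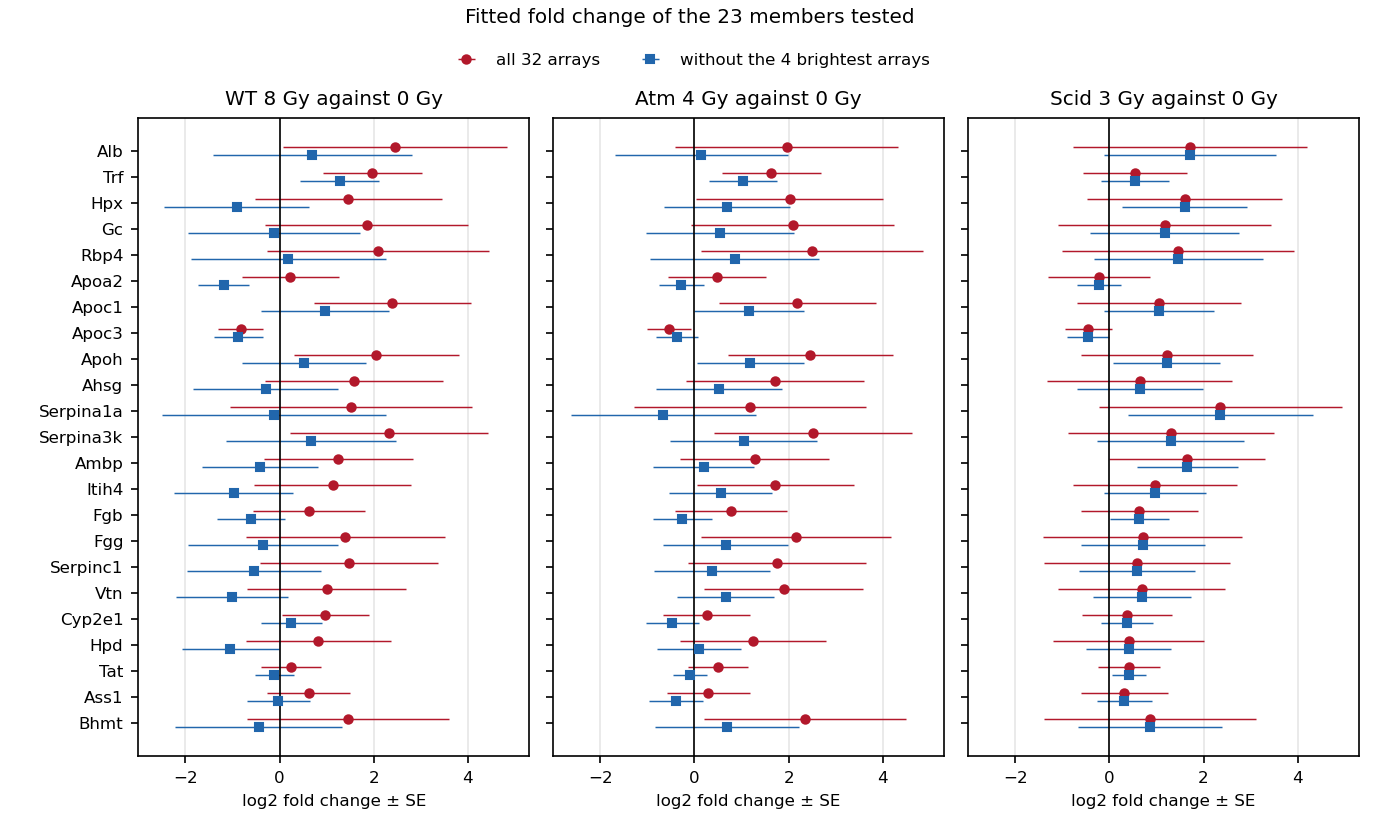
Log2 fold change (x axis) with its SE (bar) of the 23 tested transcripts (rows) in the 3 comparisons of irradiated with sham-exposed mice, fitted on all 32 arrays (circles) and without the 4 bright arrays (squares). The median over the 23 is 1.46 in WT and 1.72 in Atm on all arrays, and -0.30 and 0.52 without the 4, while in Scid, which has none of the 4, it is 0.71 in both.

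The comparisons were also fitted without the 4 bright arrays. These were picked for the highest values of the same transcripts, and 2 are WT 8 Gy, 1 is WT 0 Gy and 1 is Atm 4 Gy, so the choice itself lowers the WT and Atm medians and shows only how much of them the 4 arrays carry. The median of the 23 was then -0.30 in WT and 0.52 in Atm, and stayed at 0.71 in Scid. Of the 23, 0 were called in any comparison, with 1 at an unadjusted p under 0.05 in WT, where 15.8% of all genes in that fit were. Alb then had a log2 fold change of 0.69 (SE 2.12, adjusted p = 0.923) in WT and 0.15 (SE 1.83, adjusted p = 0.986) in Atm. Apoa2 in WT then had a log2 fold change of -1.19 (SE 0.55, adjusted p = 0.279). For the responses of Atm and Scid minus that of WT, the medians became 0.66 and 1.05.

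The 4 arrays also bore on the counts of genes called over the whole table. Without them 755 genes were called in WT (60 higher, 695 lower), of which 700 were among the 1092 called on all arrays. In Atm 11 were called, all 11 among the 36, and in Scid 266, of which 161 were among the 162. No Scid array was left out, so the Scid fold changes stayed the same and only the spread shared over the groups differed. With the mean level of the 33 transcripts as a covariate, 1168 genes were called in WT (210 higher, 958 lower; 1060 shared with the 1092), 120 in Atm (36 shared) and 270 in Scid (162 shared), and 21 and 1 in the Atm and Scid responses minus that of WT. Leaving out WT 8 Gy replicate 1 alone left 688 calls in WT, and leaving out WT 0 Gy replicate 5 alone gave 1835. Leaving out arrays also removes mice. The part of these transcripts in the calls of other genes was not tested.

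The bright arrays of irradiated and sham-exposed WT mice differed in some acute phase genes. Genes of this list are named because they passed the test or ranged widest over these same arrays. Saa1 and Saa2 encode serum amyloid A, Saa3 a further form of it, and Hamp hepcidin, which lowers iron in plasma. The level of Saa1 was 7.01, 8.74, 5.22, 7.42 and 5.58 in WT 8 Gy replicates 1 to 5, against 3.98, 4.23, 4.45, 4.10, 3.77 and 3.90 in WT 0 Gy replicates 1 to 6. Saa1 stood at 6.90, 4.58, 3.62, 4.98, 4.08 and 4.39 in Atm 4 Gy replicates 1 to 6, against 4.11, 3.73, 4.75, 4.23 and 4.37 in Atm 0 Gy replicates 1 to 5. For Saa1 the levels were 4.58, 3.46, 6.09, 5.59 and 5.87 in Scid 3 Gy replicates 1 to 5, against 4.22, 4.60, 4.98, 3.91 and 4.63 in Scid 0 Gy replicates 1 to 5. In WT, all 5 irradiated mice lay above all 6 controls, and in the other genotypes the ranges overlapped. High Saa1 levels were not confined to bright arrays, with 7.42 on WT 8 Gy replicate 4 and 6.90 on Atm 4 Gy replicate 1. For Saa2, WT 8 Gy replicates 1 and 2 had levels of 6.80 and 8.24, against 1.21 in WT 0 Gy replicate 5, and Atm 4 Gy replicate 3 had -1.38. These arrays are alike in Alb and far apart in Saa2, whose probe was well above background on 7 arrays in all. Relative to WT 0 Gy replicate 5, WT 8 Gy replicates 1 and 2 differed by 5.59 and 7.03 for Saa2, 3.24 and 4.97 for Saa1, 4.62 and 2.45 for Saa3, and 2.01 and 3.65 for Hamp. Over the 25 acute phase genes detected on both arrays the median differences were -0.10 (quartiles -0.44 and 0.92, 11 of 25 higher) and 0.74 (quartiles 0.41 and 1.31, 24 of 25 higher). These are 3 mice picked out by their hepatocyte transcripts, and the differences carry no test. Saa1 and Saa2 are near-identical, and their probes may each bind both transcripts.

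**Figure D4:**
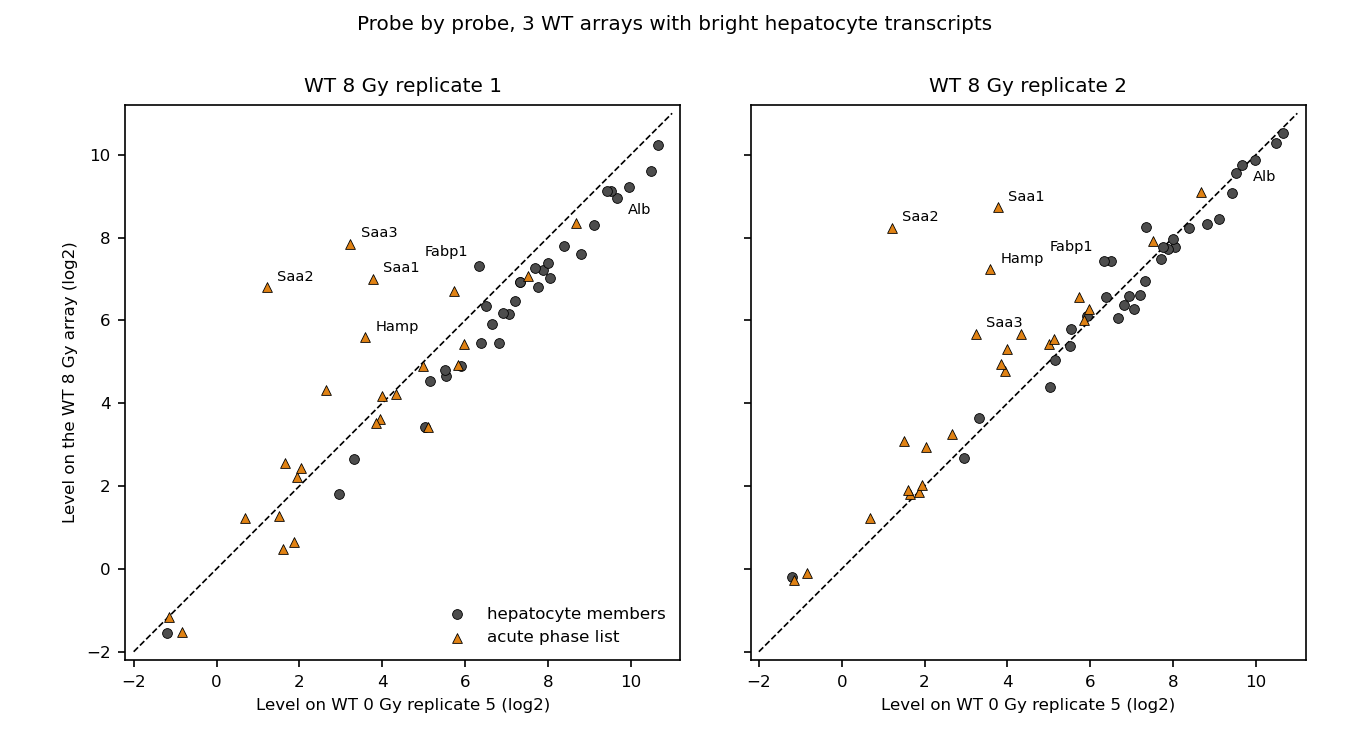
Level (log2, 75th percentile at 0) on WT 8 Gy replicate 1 (left) and replicate 2 (right) against the level on WT 0 Gy replicate 5, for hepatocyte transcripts (circles) and acute phase genes (triangles) well above background on both arrays, with equality as a dashed line. The hepatocyte transcripts lie along the line, with medians of -0.73 and -0.15 from it, while Saa2 lies 5.59 and 7.03 above it.

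In the fit over all genes, 3 of 15 tested acute phase genes rose in WT 8 Gy against 0 Gy, where 1.13% of all genes were called higher, and none was called in Atm or Scid. Saa1 rose by 2.72 (SE 0.52, adjusted p = 6.28e-04, limma), and by 1.94 without the 4 bright arrays (adjusted p = 0.0391). Its call held on leaving out each array in turn, with adjusted p from 1.61e-04 to 0.00543. Cfb, complement factor B, rose by 3.43 (SE 1.07, adjusted p = 0.0452) and Saa3 by 4.14 (SE 1.31, adjusted p = 0.0479). Without the 4 arrays Cfb had an adjusted p of 0.0476 and Saa3 one of 0.156. With the slide as a block neither passed, at 0.288 and 0.315, and of the 15 other settings tried on all genes, Cfb missed the threshold under 9 and Saa3 under 7. The Cfb call was lost (adjusted p up to 0.146) on leaving out 1 of 16 arrays, namely replicates 1, 2, 4 and 5 of WT 8 Gy, 1, 3, 4 and 6 of WT 0 Gy, 2 and 5 of Atm 4 Gy, 1, 3, 4 and 5 of Atm 0 Gy, 1 of Scid 3 Gy and 2 of Scid 0 Gy. That of Saa3 was lost (adjusted p up to 0.127) on leaving out 1 of 20, namely any of WT 8 Gy and of Atm 0 Gy, replicates 1, 3, 4 and 6 of WT 0 Gy, 2, 4, 5 and 6 of Atm 4 Gy, 1 of Scid 3 Gy and 2 of Scid 0 Gy. The difference between genotypes was not called for any of the 3.

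Other genes followed the hepatocyte transcripts over the 32 arrays. Among the tested genes, 196 had a Pearson correlation of at least 0.8 with the mean level of the 33, 80 of at least 0.9 and 46 of at least 0.95, of which 21, 18 and 16 were among the 33. The correlations are a description over 32 arrays. Outside the lists used here, the 10 highest were Mug1 (0.990), which encodes the protease inhibitor murinoglobulin, Slc27a5 (0.987), which encodes a bile acid-CoA ligase, the transcripts ENSMUST00000156693 (0.983) and ENSMUST00000153865 (0.969), the unnamed probes A_55_P2144090 (0.975) and A_55_P2035029 (0.968), XR_140635 (0.960) and the major urinary protein genes Mup4 (0.962), Mup17 (0.960) and Mup9 (0.959). Mup genes are near-identical, so the probes cannot be assigned to 1 of them. Of the 80 genes at 0.9 or more, 0 were called in any of the 5 comparisons. Among all genes, 7.2% were called in WT, 0.237% in Atm, 1.07% in Scid and 0.0% in both differences between responses. The median log2 fold change of the 80 was 1.25 in WT, 1.68 in Atm and 0.68 in Scid. The 80 were picked for following the 33 over these same arrays and include 18 of them. Their values are therefore no separate result.

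Of a longer list of 90 hepatocyte genes, 90, 90, 90 and 88 were well above background in WT 8 Gy replicates 1 and 2, WT 0 Gy replicate 5 and Atm 4 Gy replicate 3. Of the 42 longer-list genes tested, 0 were called in any comparison. The shares called among all genes were 7.2% in WT, 0.237% in Atm, 1.07% in Scid and 0.0% in both differences between responses. The median log2 fold changes of the 42 were 0.91 in WT, 1.14 in Atm and 0.45 in Scid. Since 74 of the 90 had the same 4 arrays highest, these genes are not separate observations. Acute phase genes well above background numbered 27, 27, 25 and 25 of 27 on the same 4 arrays.

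Markers of other liver cells were present as well, on bright arrays and on others. All 7 Kupffer cell genes were well above background on the 4 bright arrays. All 7 genes of liver sinusoidal endothelium on the arrays were too, and also on Scid 0 Gy replicate 4. WT 8 Gy replicates 3, 4 and 5, which were not bright, each held 5 of the Kupffer cell and 6 of the endothelial genes. Of 7 stellate cell genes, WT 8 Gy replicates 1 to 5 held 6, 6, 2, 2 and 2. Of 6 cholangiocyte genes they held 4, 5, 2, 2 and 3. Counts for both of these lists are given for WT 8 Gy alone, so they compare no dose groups. In WT, where 1.13% of all genes were called higher, 2 of 5 tested Kupffer cell genes rose, Marco, a scavenger receptor, by 3.93 (SE 1.03, adjusted p = 0.0136) and Timd4, a receptor for dying cells, by 2.28 (SE 0.70, adjusted p = 0.0402), and none was called in Atm or Scid. Without the 4 bright arrays neither passed, at 0.0699 and 0.0999. With the slide as a block they had adjusted p of 0.117 and 0.184, and of the same 15 settings Marco missed the threshold under 2 and Timd4 under 9. The Marco call was lost without WT 8 Gy replicate 1 or 4 (adjusted p up to 0.0609), and that of Timd4 on leaving out 1 of 7 WT arrays, which were replicates 1, 4 and 5 at 8 Gy and replicates 1, 3, 4 and 6 at 0 Gy (up to 0.143). Both genes are also expressed by macrophages of other organs.

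Genes of other organs were high on single arrays, 1 of them bright in hepatocyte transcripts and 1 not. All 6 genes of the pancreatic acinus were well above background on WT 8 Gy replicate 2 alone, 1 of the 4 bright arrays, where their mean level was 5.43, against -3.83 to -0.09 on the other 31 arrays. Their levels there were 8.17 for Amy2a5, 6.76 for Ctrb1, 6.35 for Cpa1, 4.57 for Prss2, 4.28 for Pnlip and 2.42 for Cela1. All 5 intestinal genes on the arrays were detected on the same array alone, with a mean level of 0.95. Heart muscle genes had their highest mean on WT 0 Gy replicate 3 (3.34), which held 9 of the 33 hepatocyte transcripts, followed by Scid 0 Gy replicate 2 (1.39). Among red cell genes, Epb42, Slc4a1 and Alas2 fell in WT 8 Gy against 0 Gy, where 6.07% of all genes were called lower. Their calls stood without the 4 bright arrays. That of Epb42 passed under all 15 other settings, and that of Slc4a1 missed under 1, normexp (adjusted p = 0.0520). The Alas2 call (log2 fold change -1.48) was lost without WT 8 Gy replicate 1 or 2 (adjusted p up to 0.0597), with the slide as a block (0.0926) and with array median scaling (0.0623). For Alas2 the change was -0.30 with quantile normalization (adjusted p = 0.470), -0.14 with spike-in scaling (0.779) and -0.03 with normexp (0.973). Epb42 also fell in Atm 4 Gy and in Scid 3 Gy. No gene of the remaining lists was called in these 3 comparisons.

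**Figure D5:**
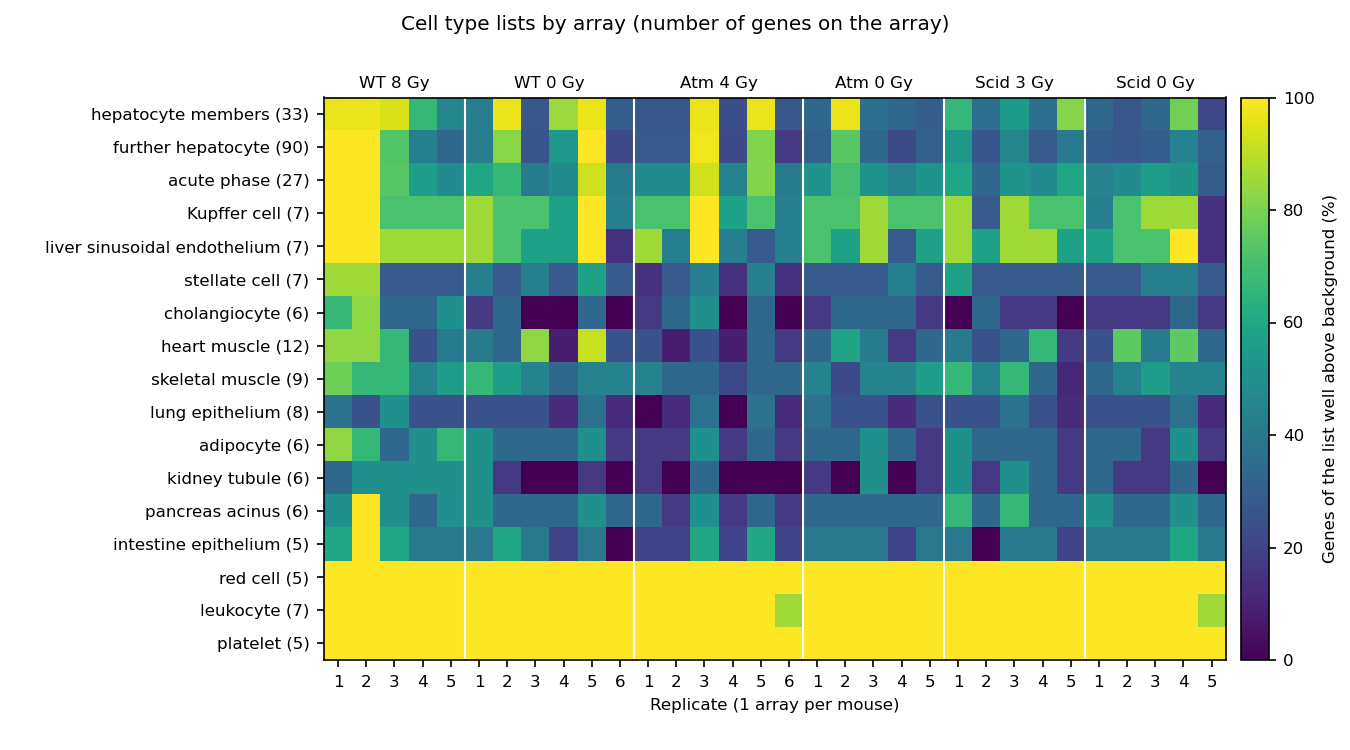
Share of the genes of each cell type list (rows, with the number of genes on the array) that were well above background (colour, percent) on each of the 32 arrays (columns). The 4 bright arrays hold 88 to 90 of the 90 further hepatocyte genes, all 6 pancreatic genes appear on WT 8 Gy replicate 2 alone, and blood cell lists are near 100% throughout.

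The arrays were scanned on 4 days and lie on 9 slides. Differences in the mean level of the 33 transcripts within a scan day ran both ways. In WT, 8 Gy minus 0 Gy gave 6.22 on day 1 (1 against 3 arrays) and -1.71 on day 2 (3 against 2). In Atm, 4 Gy minus 0 Gy gave -1.48 on day 1 (1 against 4) and 1.13 on day 3 (1 against 1), and in Scid, 3 Gy minus 0 Gy gave 0.85 on day 1 (2 against 4) and -0.44 on day 2 (2 against 1). Day 4 held WT 8 Gy replicate 5 alone. Within slides that held both groups, WT gave 7.50 and 5.30, Atm -0.37 and 1.13, and Scid 1.84 and 0.78, with 1 array on each side. In each genotype the difference thus had opposite signs on the days that could be compared, and the part of the scan day in the levels was not tested.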

How the data were processed

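RNA of whole blood from 32 mice was hybridised to Agilent 1-colour arrays. The values used are an intensity for each spot in scanner tables that the authors deposited. Agilent Feature Extraction had subtracted the background and removed spatial trends (version 12.0.2 per the submitters' processing notes, 11.5.1.1 as the file headers have it). Log2 values that the authors deposited in a separate matrix (15276 to 20163 probes per array, column medians 5.51 to 6.44) lay within 0.01 of the log2 signal plus a constant per array for 98.5 to 99.5% of probes. How the constant was chosen is not given in the sources used here, and this matrix served as an alternative.

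Control spots and outlier spots (125 to 324 per array) were left out, replicate spots of a probe (399 probes) averaged, and log2 signals set to each array's 75th percentile, whose signal was 17.1 to 232.1. The 18367 probes that passed background on 4 or more arrays within 1 group were kept, and the kept probe of highest mean stood for each of 15159 genes. The 6 group means were fitted on all 32 arrays with limma 3.58.1 (R 4.3.3; lmFit and eBayes), with two-sided p-values, Benjamini-Hochberg adjustment over all genes and a threshold of 0.05. The procedure was tested on simulated data with independent noise in each gene and 1 spread per gene over all groups. Such data lack the shared shifts of transcripts between arrays seen here, so that test does not cover them. Python 3.11.15 read the files. Groups follow the labels' genotype and dose. Replicate numbers did not pair mice across dose groups.

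The members and lists were chosen with earlier results of these data known. The text names every member, and gives fold changes for Alb, for members that passed and for the 3 tested members of highest mean, array values for 9 members, list members that passed and the 10 genes most like the members. The rule also took the 4 genes of widest range in 2 lists, whose ranges are left out because they reach down to probes at background, and not every gene is reported here. Alternatives changed the scaling, background correction, filter, block, weights and arrays.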

Additional observations from a re-analysis of the deposited data

Results flagged for a closer look

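Values were set apart where the highest or lowest array of a group lay farther from its nearest neighbour than Dixon's 95% critical value allows, over 84 group values. Chance would flag about 1 in 20 of them, or 4.2, and 16 were found. Most of the 84 are levels of the hepatocyte transcripts or summaries of them, which moved from array to array as a block. The flags are therefore not separate observations, and 16 against 4.2 measures no excess. Of these, 7 belonged to Atm 0 Gy replicate 2. Its mean level of the 33 transcripts was 2.17, against -1.77 on the nearest array of its group, and 32 of the 33 transcripts were well above background, against 12. Its levels were 4.78 for Alb, 0.55 for Apoa1, 2.74 for Ttr, -1.57 for Cps1 and 4.06 for Rbp4, each the highest of 5.

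WT 0 Gy replicate 5 was the highest of 6 for Fgb (7.06, against 2.45 on the nearest array), Cyp2e1 (8.05, against 4.09) and Cps1 (3.31, against -1.90). Scid 0 Gy replicate 4 had 26 of the 33 transcripts well above background, against 11 on the nearest array, and an Alb level of 1.69, against -1.98. Scid 0 Gy replicate 5 was highest for Ass1 (4.83, against 2.63) and for Cps1 (-2.19, against -3.17), whose probe was not well above background there. The mean level of the pancreatic acinus list was 5.43 on WT 8 Gy replicate 2, against -2.94 on the nearest array of its group. The mean level of the Kupffer cell list was -1.77 on Scid 3 Gy replicate 2, the lowest of 5, against 0.81 on the nearest.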

How the results depend on the processing

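Of the tested transcripts, 0 were called under most settings. With spike-in scaling, 1 was called in WT (Trf, higher, log2 fold change 3.31), 1 in Atm (Apoc3, lower) and 4 in the Atm response minus the WT response (Tat, Cyp2e1, Apoc3 and Ass1, lower; median of the members -2.65), and with array weights 1 in WT (Apoc3, lower). Leaving out each array in turn, members called ranged from 0 to 1 in WT and were 0 elsewhere. The members' medians ranged from 0.11 to 2.86 in WT, 0.52 to 2.75 in Atm, 0.48 to 1.09 in Scid, -1.04 to 1.43 for Atm minus WT and -1.56 to 0.63 for Scid minus WT.

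Signs turned for Apoa2 in WT (-0.97 with weights, -1.19 without the 4 bright arrays, and -0.70 to 1.06 without single arrays), in Atm (-1.08 spike-in, -0.28 without the 4, and up to 0.83 without single arrays) and in Scid (0.034 spike-in, 0.61 with the mean of probes, 0.087 with the slide), for Trf in Scid (-0.24 normexp, -0.025 with weights, and -0.054 to 0.97 without single arrays) and for Cyp2e1 in Atm (-1.30 spike-in, -0.32 scan day, -0.35 slide, -0.022 weights, -0.47 without the 4, and up to 0.69 without single arrays). The cause was not tested.

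Counts over all genes moved more. In WT they were 671 with the array median (148 higher, 523 lower), 5546 with spike-ins (5387 and 159), 470 with normexp (277 and 193), 538 with the slide and 3050 with weights, against 1092 (172 and 920). In Atm, against 36, they were 184, 11307, 1, 0 and 546 in that order, and 108 with the percentile of probes detected on all arrays, 339 with the authors' values, 7 with no filter and 7 with 1 array, 0 with the scan day, 75 with the replicate block, 11 without the 4 arrays and 120 with the covariate. In Scid, against 162, they were 0 with spike-ins and 0 with normexp, 368 with the authors' values, 54 with no filter, 86 with 1 array, 69 with the scan day, 85 with the slide, 1230 with weights, 266 without the 4 and 270 with the covariate. Atm minus WT gave 13928 with spike-ins, 36 with the slide and 21 with the covariate, and Scid minus WT 22 with weights and 1 with the covariate. Leaving out single arrays gave 688 to 1835 in WT, 2 (Atm 0 Gy replicate 2) to 274 (Atm 4 Gy replicate 1) in Atm, 43 (Scid 0 Gy replicate 2) to 403 (Scid 0 Gy replicate 5) in Scid, 0 to 3 for Atm minus WT and 0 to 1 for Scid minus WT. Same-numbered mice correlated by a mean of 0.02, so the replicate block is no pairing, and it moved no other count by over 1.5 times. Signal over background limits 10 of the 33 transcripts to no test.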
